A study of Mus musculus with 8 samples.

Results

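Axon guidance genes encode the cues that steer growing nerve fibres and the receptors that read them, and the genes examined were 6 such families: Eph receptors, ephrins, semaphorins, plexins with neuropilins, netrins with Dcc and Unc5, and Slit with Robo. Within these families genes were chosen by gene symbol. The choice took in 73 of the 18194 genes that a probe set named alone, measured by 162 probe sets. By known function 3 of the 73 are no guidance genes. Unc50 is a Golgi membrane protein, Unc5cl a death domain protein, and Plxna4os1 an RNA antisense to a plexin gene. They were kept because the symbol rule takes them in, and counts without them are given where they matter.

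The cochleae came from 8 mice of the inbred strain CBA/CaJ, all in a single group of normal cochlea. Per the labels every mouse received a lethal urethane injection of 300 mg/kg, blood was washed out with saline, and the labels name no genotype, sex, age or batch. The tissue was all the soft tissue inside the bony shell, that is the spiral ligament, the organ of Corti and the modiolus, so it mixed many cell types, and the ears of a mouse were pooled on 1 Affymetrix Mouse Genome 430 2.0 array. With 1 group there is no contrast, and the comparisons are between mice, between the probe sets of a gene, and between guidance genes and all other genes on the array. Signals are in arbitrary units, given as the lowest, median and highest of the 8 mice (n = 8) or as mean ± SD. Each probe set has its own brightness, so a signal says nothing of 1 gene's RNA against another's, and mouse numbers are names only.

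Guidance cues work in ligand and receptor pairs. Ephrins on one cell bind Eph receptors on the next, with ephrin-A ligands held to the membrane by a lipid anchor and ephrin-B ligands spanning it. Semaphorins signal through plexins, and the secreted class 3 needs a neuropilin as co-receptor in most cases. Netrins bind Dcc and the Unc5 receptors, and Slit proteins bind Robo receptors. In the developing cochlea EphA4 in the mesenchyme around the spiral ganglion helps to bundle the auditory nerve fibres, and several of the same molecules guide blood vessels.

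Sema3e and Ntng1 are shown by sequence because they were among the detected guidance genes with the largest spread between mice and were both lowest in mouse 6, as given below. The promoter windows are from RefSeq on build GRCm38.p6 and run 5′ to 3′ from 250 bases before to 50 bases after the gene start, at chr5:14025026-14025325 on the plus strand for Sema3e and at chr3:110143423-110143722 on the minus strand for Ntng1. Capitals mark the GC box, spelled GGGCGG and read as CCGCCC from the opposite strand, and the E-box, spelled CACGTG on both strands. The motifs do not overlap each other in these windows.
Sema3e: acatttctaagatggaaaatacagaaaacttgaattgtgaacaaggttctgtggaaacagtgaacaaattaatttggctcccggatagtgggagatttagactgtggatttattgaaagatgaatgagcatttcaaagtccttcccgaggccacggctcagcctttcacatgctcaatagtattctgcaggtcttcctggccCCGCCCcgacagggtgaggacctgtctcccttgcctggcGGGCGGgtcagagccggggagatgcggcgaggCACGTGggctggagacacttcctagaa
Ntng1: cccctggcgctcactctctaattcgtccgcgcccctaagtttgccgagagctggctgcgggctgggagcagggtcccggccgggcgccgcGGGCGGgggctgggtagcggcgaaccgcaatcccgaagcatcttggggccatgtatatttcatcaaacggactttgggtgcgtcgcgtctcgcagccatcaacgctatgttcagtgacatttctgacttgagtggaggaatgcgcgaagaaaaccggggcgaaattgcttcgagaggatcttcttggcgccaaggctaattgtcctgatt
The Sema3e window held 2 GC boxes and 1 E-box, with 11 CpG dinucleotides and a GC content of 50.7%. The Ntng1 window held 1 GC box and 0 E-boxes, with 28 CpG dinucleotides and a GC content of 59.7%. A GC box was present in 35.7% of all 32851 promoter windows of the table and an E-box in 7.15%. Of the 73 genes 62 had an entry, with 78 windows in all, and 71.8% of these held a GC box and 6.41% an E-box. The table covers genes of every kind, so these shares describe letters in a window and no binding.

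The arrays were alike overall. Pearson's r of log2 signal between arrays ran from 0.945 to 0.96, taken over probe sets, which are no replicates, and no 2 arrays had the same values. Mouse 1 stood apart on the first principal component of the detected genes, which held 39.7% of the variance, with a loading of 0.83 against -0.31 to 0.17 in the others. A gene was called detected when its brightest probe set was above the background threshold on all 8 arrays. That threshold, the 95th percentile of probe sets of olfactory and vomeronasal receptor genes and genes of unrelated organs, ranged from 58.4 to 95.2, and 5 of the 133 background genes passed it. The background took in Odf2l, a widely expressed gene, by mistake, and results without it are given at the end. With 8 arrays precision is limited for every mean, and nothing in the labels separates differences between animals from those of the assay.

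Every guidance family had detected members in the cochlea. Of the 73 genes 45 (61.6%) were detected, against 60.5% of all 18194 genes, so under this rule guidance genes were detected at about the rate of the array as a whole. Without Unc50, Unc5cl and Plxna4os1 the count was 44 of 70. By family, 16 of 20 semaphorins were detected, 8 of 12 plexin and neuropilin genes (Plxna4os1 counted here), 5 of 8 ephrins, 4 of 7 Slit and Robo genes, 7 of 13 netrin, Dcc and Unc5 genes, and 5 of 13 Eph receptors. A further 12 genes passed the threshold on some arrays only, and 16 passed it on none. Whether the shares differ between families was not tested.

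**Figure D1:**
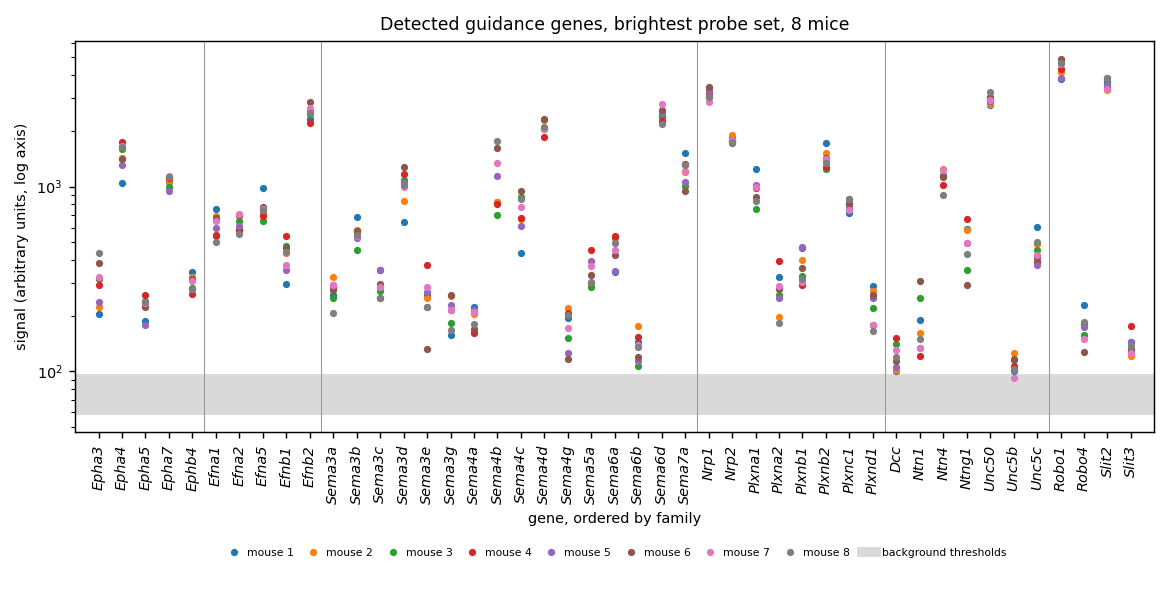
Signal (arbitrary units, log axis) of the brightest probe set of each of the 45 detected guidance genes in each mouse, with 1 coloured point per mouse, vertical lines between families and the range of the background thresholds (58.4 to 95.2) as a grey band. Points of most genes lie close together, while Sema3e, Sema4b, Ntn1 and Ntng1 are spread out, and Dcc and Unc5b lie at the upper edge of the band.

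Among the Eph receptors, which are receptor tyrosine kinases, 4 of 9 EphA genes and 1 of 4 EphB genes were detected. Epha4, which binds ephrins of both classes, measured 1052 at its lowest, 1512 at the median and 1744 at its highest. Mouse 1 was the low animal, and the rest lay between 1307 and 1744. Epha7 ranged from 949.5 to 1144 with a median of 1089, the tightest of the detected Eph receptors at an SD of 0.10 (log2). Epha5 ranged from 179 to 258. Epha3 ranged from 205 in mouse 1 to 438 in mouse 8 around a median of 305, a 2.14-fold range with an SD of 0.39 (log2). Its second detected probe set, at a mean of 293 against 303, ranged from 212.5 in mouse 1 to 367 in mouse 4. On that probe set mouse 8 measured 290 and the SD was 0.23, so the high value of mouse 8 rests on 1 probe set. Ephb4, the receptor of ephrin-B2 on veins, measured 299.7 ± 28.3 (SD, n = 8). Epha1 and Ephb3 were each above background on 7 of 8 arrays, Ephb1 on 3 and Ephb6 on 2. Epha2, Epha6, Epha8 and Epha10 were above it on none.

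The single detected Epha4 value rested on 1 of 5 probe sets. The brightest probe set was above threshold on all arrays, while the other 4 were so on 7, 6, 3 and 0 arrays. Mouse 1, lowest on the brightest probe set, was the highest on the second-brightest one, at 170.0 against 76.5 to 128 in the rest. It was also highest on the next one in brightness, at 131 against 66.4 to 121 in the rest. On the one after that, above threshold on 3 arrays, it was lowest at 63.3 against 64.3 to 73.7. The low value of mouse 1 for Epha4 therefore holds for the brightest probe set and not for those that follow it most closely in brightness.

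Of the ephrins 3 ephrin-A and 2 ephrin-B ligands were detected, with SDs from 0.12 (log2, Efnb2) to 0.27 (Efnb1). Efnb2, the ephrin of arteries and a partner of both EphA4 and EphB4, ranged from 2204 to 2856 with a median of 2501. Efna5 measured 982 in mouse 1 and 652 to 778 in the others, so a single animal stood above the rest. Efna2 ranged from 551 to 707. Efna1 measured 754 in mouse 1, 690.1 in mouse 2, 674 in mouse 6, 654 in mouse 7, 599 in mouse 5, 549 in mouse 4, 542 in mouse 3 and 499 in mouse 8. Efnb1 measured 296 in mouse 1, 355 in mouse 5, 376 in mouse 7 and 436 to 540.1 in the remaining 5. Mouse 1 was thus highest for Efna1 and lowest for Efnb1. The second detected probe sets of Efna1 and Efnb1 had SDs of 0.27 and 0.34. Efna4 and Efnb3 each passed the threshold on 2 arrays, and Efna3 on none.

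Semaphorins gave the longest list of detected genes. Of the secreted class 3, 6 of 7 were detected: Sema3a, a repellent of sensory axons, at 273 ± 35.3, Sema3b at 561 ± 65.1, Sema3c at 293 ± 41.7, Sema3d at 1009 ± 196, Sema3e at 252 ± 68.6 and Sema3g at 210.2 ± 38.2 (SD, n = 8). Sema3f was above background on 7 of 8 arrays. Sema3d measured 642 in mouse 1 and 833 to 1278 in the others, and its SD of 0.31 (log2) fell to 0.19 without mouse 1. Among membrane semaphorins, Sema6d, a ligand of plexin-A1, ranged from 2182 to 2801 and Sema4d, a ligand of plexin-B1, from 1852 to 2321. Both were among the steadier members, at SDs of 0.11 and 0.10 (log2). Sema7a, which is lipid-anchored and binds plexin-C1, ranged from 949 in mouse 6 to 1524 in mouse 1. Sema4a, Sema4g, Sema5a, Sema6a and Sema6b were detected too, with means between 136 and 459. Sema6c passed the threshold on 2 arrays, and Sema4f and Sema5b on none.

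Sema4b, a transmembrane semaphorin, had the largest spread of the 45 detected genes at an SD of 0.50 (log2). It measured 825 in mouse 1, 826 in mouse 2, 704 in mouse 3, 807 in mouse 4, 1146 in mouse 5, 1608 in mouse 6, 1336 in mouse 7 and 1756 in mouse 8. The animals numbered 1 to 4 thus lay at or below 826 and the other 4 at or above 1146. The labels give no batch to which this could be matched. A second Sema4b probe set was above threshold on no array, so the pattern rests on 1 probe set. Its relative Sema4c measured 434 in mouse 1 and 615 to 952 in the others, and its SD of 0.36 fell to 0.24 without mouse 1.

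Of the semaphorin receptors, both neuropilins were detected, each on 3 probe sets or more. Nrp1, co-receptor of class 3 semaphorins and of VEGF, ranged from 2855 to 3441 around a median of 3146, and Nrp2 from 1718 to 1897 around 1781. Their SDs were 0.09 and 0.05 (log2), that of Nrp2 the smallest of the 45 detected guidance genes by brightest probe set. Other detected probe sets had SDs of 0.10 to 0.31 for Nrp1 and 0.14 to 0.15 for Nrp2. Of the 9 plexins 6 were detected, with a median SD of 0.24. Plxnb2 measured 1417 ± 147, Plxna1 966 ± 146, Plxnc1 792 ± 51.6 and Plxnb1 368 ± 71.4 (SD, n = 8). Plxna2 ranged from 182 in mouse 8 to 395 in mouse 4, and Plxnd1, the receptor of Sema3e, from 165 in mouse 8 to 289 in mouse 1. Plxna3 was above background on 6 arrays, Plxna4 on 1 and Plxnb3 on none.

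Of the netrins, Ntn1 and Ntn4 and the lipid-anchored Ntng1 (netrin-G1) were detected. Ntn4, a basement membrane netrin, ranged from 903 to 1242 around a median of 1139. Ntn1 measured 310.0 in mouse 6, 249 in mouse 3, 190.2 in mouse 1 and 121 to 161 in the other 5. Its 2.56-fold range came with an SD of 0.48 (log2), and 0.36 without mouse 6. Ntng1 measured 293 in mouse 6, 356 in mouse 3, 433 in mouse 8, 494 in mouse 7, 496 in mouse 5, 585 in mouse 2, 589 in mouse 1 and 671 in mouse 4. The mice high for Ntn1 were thus the low ones for Ntng1 in the case of mice 6 and 3. Ntn5 was above background on 3 arrays, and Ntn3 and Ntng2 on none.

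Among netrin receptors, Unc5c ranged from 377 to 604, Unc5b from 92.6 to 125 and Dcc from 101 to 152, the last 2 close to the threshold. Dcc rested on 1 of 3 probe sets. Unc5d was above background on 7 of 8 arrays and measured 35.0 in mouse 6 against 85.6 to 172 elsewhere. Unc5a was above it on none. Unc50, no receptor, measured 2958 ± 147.

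Slit2, a secreted repellent, and Robo1, its receptor, were both detected. On its brightest probe set Slit2 ranged from 3339.9 to 3886 around a median of 3578, an SD of 0.08 (log2), and Robo1 from 3822 to 4933 around 4454, an SD of 0.13. The second detected probe set of Slit2 ranged more widely, from 223 in mouse 1 to 489 in mouse 6, an SD of 0.39. Slit3 measured 176 in mouse 4 and 122 to 145 in the others. Robo4, a receptor of endothelial cells, ranged from 128 in mouse 6 to 229 in mouse 1. Slit1, Robo2 and Robo3 were above background on no array.

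**Figure D2:**
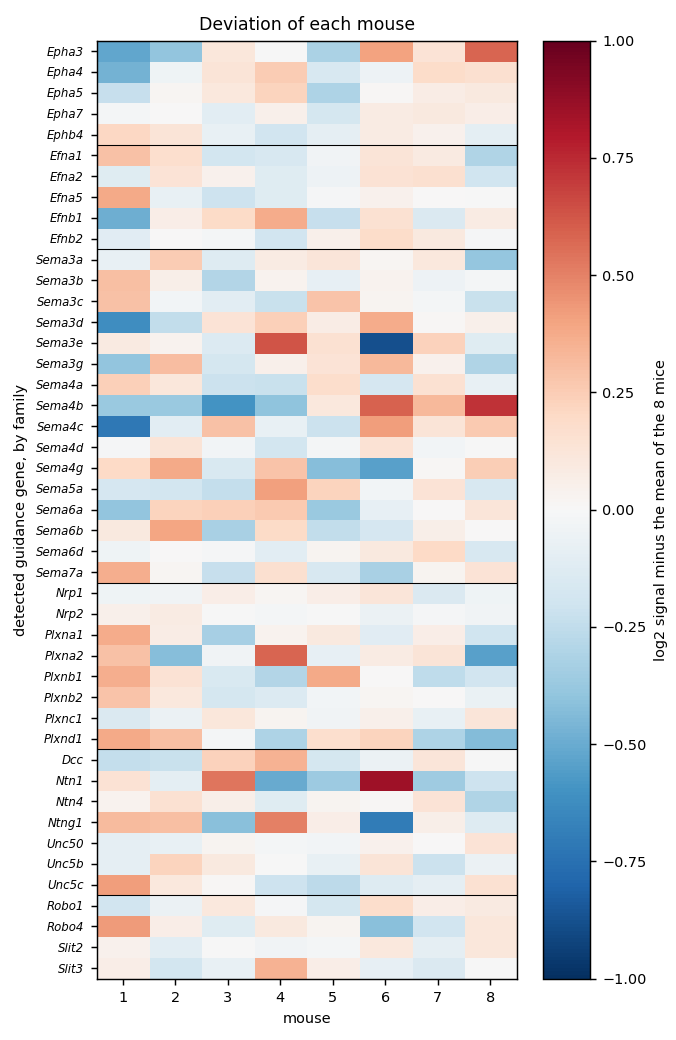
Log2 signal of each detected guidance gene in each mouse minus its mean over the 8 mice, red above and blue below the mean, with lines between families. Deep blue marks Sema3e, Ntng1 and Sema4g in mouse 6 and Sema4c and Sema3d in mouse 1, and deep red marks Ntn1 in mouse 6 and Sema4b in mouse 8.

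Spread between mice was close to that of the array as a whole. The median SD of the 45 detected guidance genes was 0.20 on the log2 scale, against 0.18 in all 11016 detected genes. An SD above 0.3, a limit chosen after the values were seen, was found in 10 of the 45 (22.2%) and in 13.4% of all detected genes. The 10 were Sema4b, Ntn1, Sema3e, Ntng1, Epha3, Sema4c, Plxna2, Sema4g, Plxnd1 and Sema3d, of which 5 are semaphorins. Each mouse was lowest for 2 to 11 of the 45 genes. Mouse 1 was lowest for 11 (24.4%) and highest for 12 (26.7%), against 25.1% and 34% of all detected genes, close to or below the array's share. Mouse 4 was highest for 10 of the 45 (22.2%, against 10.9% of all detected genes), mouse 6 for 8 (17.8%, against 9.12%) and mouse 3 for 0 (against 9.98%). These shares were not tested.

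**Figure D3:**
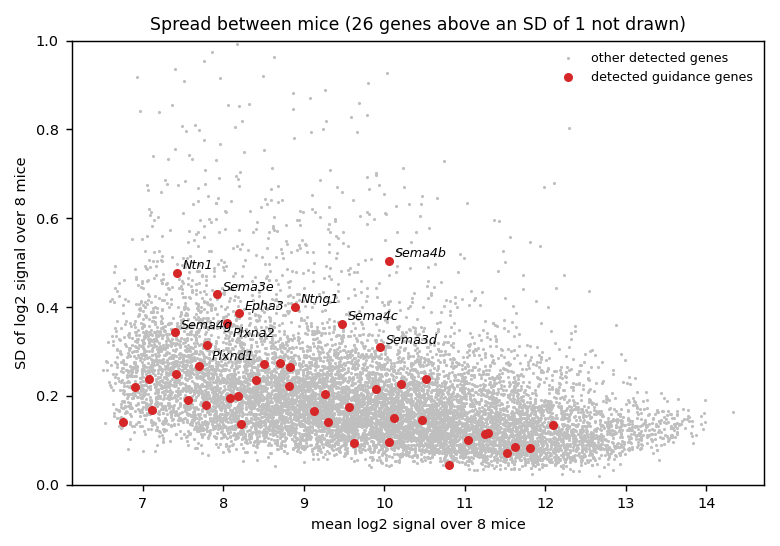
SD of log2 signal over the 8 mice (vertical axis) against mean log2 signal (horizontal axis) for all 11016 detected genes in grey, with the 45 guidance genes in red and those with an SD above 0.3 named; genes with an SD above 1 are not drawn. Sema4b stands highest among the red points at 0.50.

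Sema3e was low in a single mouse on all 3 of its detected probe sets. The brightest measured 132 in mouse 6 and 222 to 376 in the others, the next 113 against 178 to 287, and the weakest of the 3 measured 146 against 194 to 243. On each of the 3, mouse 6 lay below the range of the other 7. A further Sema3e probe set, above threshold on 3 arrays only, did not show this: mouse 6 measured 85.2 there, within a range of 48.5 to 102. Without mouse 6 the SD of Sema3e fell from 0.43 to 0.26 (log2). By brightest probe set another 5 detected guidance genes had their lowest value in mouse 6, namely Ntng1, Sema7a, Sema4g, Robo4 and Nrp2. So 6 of the 45 (13.3%) did, against 11.9% of all detected genes. For Nrp2 the other detected probe sets differed: on 1 of them mouse 6 was highest, at 788 against 572.6 to 696.5 in the others. On the other one mouse 8 was lowest. Ntng1 and Sema7a each had 1 detected probe set. Plxnd1, the receptor gene of Sema3e, measured 259 in mouse 6, inside its range in the other mice.

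Neuron markers were also lowest in mouse 6. Of 13 listed markers of neurons 10 were detected, and Prph was above background on no array. Each of the 10 had its lowest value in mouse 6. Their mean deviation was -1.01 (log2) in mouse 6 and lay between -0.19 and 0.51 in the others. Nefl, a neurofilament, measured 1741 in mouse 6 and 3636 to 6059 elsewhere. Schwann cell markers (6 of 8 measured were detected, Pmp22 and Mbp among them) had a mean deviation of 0.03 in mouse 6 within a range of -0.23 to 0.15. That mean covers markers that differed in direction. Pmp22 was lowest in mouse 6, at 6453 against 7129 to 9086 in the others. Mbp measured 9286.5 there, below mouse 1 at 9488 and above the rest. Markers of the central nervous system, which a dissection could include, were detected for 3 of 8 genes, with Olig2, Gabra6 and Neurod1 above background on no array. Mog was above background on 2 arrays, at 356 in mouse 6 and 314.5 in mouse 1, and was at most 28.9 in the others. Of the 3 detected genes, Gfap measured 1292 in mouse 6 and 805 in mouse 1 against 122 to 414 in the others. The other 2 did not set mouse 6 apart: Zic1 measured 376 there within a range of 205 to 437, and Cbln1 measured 2473 within 1912 to 3114. Osteoblast markers (7 of 7 measured were detected) deviated by 0.55 in mouse 6 within a range of -0.61 to 0.59, and neutrophil markers (4 of 8 measured were detected) by 1.14 within -2.75 to 1.22. In bulk tissue, fewer cells of a type and less RNA per cell cannot be told apart, and the part of these markers in the guidance genes' values was not tested beyond the correlations that follow.

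**Figure D4:**
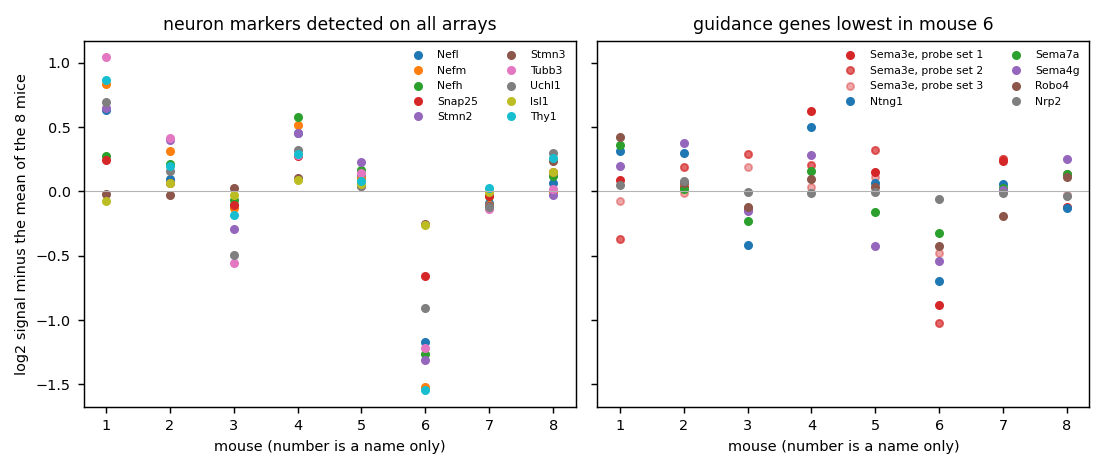
Log2 signal minus the mean of the 8 mice (vertical axis) for each mouse (horizontal axis), with the 10 detected neuron markers on the left. On the right are the 3 detected Sema3e probe sets and the brightest probe set of the 5 other detected guidance genes lowest in mouse 6 on that probe set. On the left each marker is lowest in mouse 6, and on the right Sema3e and Ntng1 fall farthest.

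Each detected gene was correlated over the 8 mice with a score for each of 11 cell types, the mean deviation of its detected markers. No relation passed the exact permutation test after Benjamini-Hochberg adjustment over all 121106 relations, among them 495 of guidance genes (0 of 121106, 0%). With 40320 pairings of the mice the exact permutation p cannot be under 2.48e-05. A relation standing alone at that value could not have passed this adjustment, so the test had little power to call any. At an unadjusted p under 0.05 there were 35 of the 495 (7.07%), against 7.15% of all relations (exact permutation), and with Spearman's correlation 0 passed after adjustment as well. By score, 9 of the 45 guidance genes were at an unadjusted p under 0.05 with the neuron score (7.76% of all genes), 8 with the endothelial score (16.5%), 4 with the macrophage score (4.22%), 3 with the osteoblast score (5.3%) and 1 with the supporting cell score (2.33%). There were 2 each with the Schwann (4.67% of all genes), hair cell (2.7%), marginal cell (20.6%), melanocyte (5.38%) and neutrophil (3.06%) scores, and 0 with the fibrocyte score (6.14%). Genes share the score and the mice, so these counts are descriptions. Robo4 had the smallest p, with the neuron score: Pearson's r = 0.92 (exact permutation p = 0.000694, adjusted p = 0.458), Spearman's rho = 0.90 (exact p = 0.00456), and r = 0.84 without mice 1 and 6. For Ntng1 with the neuron score r was 0.89 (exact p = 0.00186, adjusted p = 0.52) and rho 0.90 (exact p = 0.00456), with r = 0.86 without mice 1 and 6. Sema7a gave r = 0.83 with the same score (exact p = 0.0061, adjusted p = 0.54), rho = 0.88 (exact p = 0.00724) and r = 0.70 without those mice. For Sema3e, r was 0.84 (exact p = 0.0252, adjusted p = 0.652), but rho was 0.55 (exact p = 0.171), and r fell to 0.61 without mice 1 and 6. Sema4g gave r = 0.75 with the neuron score (exact p = 0.0193, adjusted p = 0.637). The rest of the 9 ran opposite to that score. They were Efnb2 (r = -0.81, exact p = 0.013), Robo1 (r = -0.75, exact p = 0.0187), Sema4c (r = -0.76, exact p = 0.0438) and Ntn1 (r = -0.72, exact p = 0.04). Their adjusted p ran from 0.619 to 0.688. Relations of like size were found with other scores. Sema6b with the hair cell score gave r = 0.93 (exact p = 0.00176, adjusted p = 0.52), rho = 0.90 (exact p = 0.00456) and r = 0.88 without mice 2 and 5. Plxnb2 with the endothelial score gave r = 0.92 (exact p = 0.00186, adjusted p = 0.52), rho = 0.98 (exact p = 0.000397) and r = 0.91 without mice 1 and 3. Sema7a was closer to the osteoblast score than to the neuron score, at r = -0.91 (exact p = 0.0032, adjusted p = 0.536), rho = -0.86 (exact p = 0.0107) and r = -0.81 without mice 3 and 6. These tests were two-sided. None of these correlations is a call, and with 8 mice a miss does not show that gene and score are unrelated.

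Whether separate probe sets of a gene saw the same differences between mice was tested for the 17 guidance genes with at least 2 detected probe sets. The 2 brightest agreed in 2 of 17 (adjusted p at most 0.05 in a one-sided exact permutation test over 40320 pairings, adjusted over 4511 genes), against 12.4% of all genes. The median r of the 17 was 0.34, against 0.35 for all genes tested. The 2 were Efna1 (r = 0.90, exact p = 0.00156, adjusted p = 0.0258; rho = 0.90, exact p = 0.00228) and Efnb1 (r = 0.89, exact p = 0.00278, adjusted p = 0.0339; rho = 0.88, exact p = 0.00362). Without the 2 mice farthest from the median, r was 0.75 for Efna1 and 0.60 for Efnb1. On the second probe set of Efna1 mouse 1 was again highest at 458 and mouse 8 lowest at 255, and on that of Efnb1 mouse 1 was again lowest at 128 against 186 to 269.5. The Efna1 call ended without mouse 1, 2, 3, 6 or 8, with adjusted p from 0.0513 to 0.105, and the Efnb1 call without mouse 1, 2, 3, 5, 7 or 8, with adjusted p from 0.0607 to 0.135 (exact permutation tests).

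In none of the other guidance genes tested did the 2 probe sets pass. Sema3e reached r = 0.75 (exact p = 0.0613, adjusted p = 0.183), which was -0.05 without mice 4 and 6. Efnb2 reached r = 0.74 (exact p = 0.0178, adjusted p = 0.0876). Nrp2, Plxnc1 and Slit2 had r below 0, at -0.41, -0.17 and -0.08. Epha7 showed how far the reading of a gene can depend on its probe set: the brightest had an SD of 0.10 (log2), whereas the next ranged from 274.5 in mouse 1 to 668 in mouse 3, an SD of 0.46. Of the 48 guidance genes with at least 2 probe sets, 30 had both a detected and an undetected one, 6 had all of theirs detected and 12 none.

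**Figure D5:**
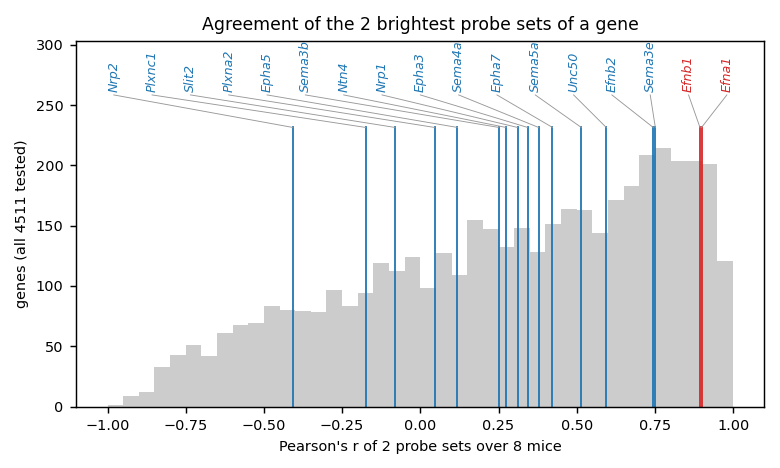
Histogram of Pearson's r over the 8 mice between the 2 brightest detected probe sets of each of 4511 genes (horizontal axis r, vertical axis number of genes), with a line for each of the 17 guidance genes, red where the test was passed and blue where not. Efnb1 and Efna1 stand at 0.89 and 0.90, and the others run from -0.41 to 0.75.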

How the data were processed

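Total RNA of cochlear soft tissue was amplified, biotin-labelled and hybridised to 8 arrays, 1 per mouse. The authors deposited a linear intensity for each probe set, made with MAS5 per the submitters' processing notes; its version and settings are not given in the sources used here. Arrays had been scaled, since the mean signal without the lowest and highest 2% was equal on each. The file held 0 columns of other samples.

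Gene names came from the platform annotation: 34958 of the 45101 probe sets had 1 gene and were used, while 932 had several genes and 9211 had no gene. Of the members' 162 probe sets all 162 matched a current symbol by Entrez identifier, and 0 changed. No genome build is named for the probes. Each gene took the value of its brightest probe set by mean, as log2 with signals under 1 set to 1. The background came from 169 probe sets of 133 genes. Markers were not tested against their own score, and a score needed at least 4 detected markers. Lists of the central nervous system and of skeletal muscle had 3 and 0. Muscle markers were still above threshold on some arrays: Mylpf measured 3034.5 in mouse 5 and 62.3 to 262.7 in the others, while Ckm was above it on none. The threshold was an adjusted p of 0.05. Named with values are Epha4, Sema3e and, per family, the 2 detected genes with the highest signal and the 2 with the largest SD; other members were named freely. The families and with them the members, taken by symbol, and the lists were chosen with earlier results of these data known. The arrays are of separate mice, and each p-value is the share of pairings of the mice that gave a correlation at least as strong. Differences between these 8 samples include those of the assay. Alternatives were another scaling, pseudocount, probe set rule, background, filter or correlation, and leaving out mice. Tests were tested on simulated data. The summary of a list of further guidance signalling genes is not reported here. Software was Python 3.11.15 with scipy 1.17.1, pandas 2.3.3, numpy 2.4.6 and matplotlib 3.10.9.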

Additional observations from a re-analysis of the deposited data

Results flagged for a closer look

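In 2 of the 45 detected guidance genes (4.44%) a single mouse lay far from the other 7 by Dixon's ratio of the gap to the range, taken on log2 signals, against 12.9% of all detected genes. Chance alone flags about 1 in 20 groups. They were Efna5, highest in mouse 1 at 982 against 778 or less (ratio 0.567), and Slit3, highest in mouse 4 at 176 against 145 or less (ratio 0.532). The neuron marker score was set apart in the same way by mouse 6, its lowest (ratio 0.535).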

How the results depend on the processing

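The count of detected guidance genes stayed between 31 and 50 over the alternatives other than single mice left out, and between 45 and 47 without any 1 mouse. Without Odf2l in the background, an added alternative, it was 48, with Epha1, Ephb3 and Sema3f gained, and 11479 of all genes were detected. The guidance count was 31 with the mean of all probe sets, which lost Ntn1, Ntng1 and Dcc among others. It was 33 at the 99th percentile, which lost Sema3e, Ntn1 and Dcc among others. Among all 18194 genes the count was 9276 with the mean of all probe sets and 9219 at the 99th percentile, in place of 11016. The guidance count thus fell by the larger share under both, and lay below the rate of the array. The median SD of 0.20 (log2) was 0.25 with no filter, against 0.26 over all genes, and 0.18 to 0.22 without any 1 mouse. Without mouse 1 it was 0.18, against 0.14 over all detected genes. At the 99th percentile it was 0.20, against 0.16 over all detected genes. The number of guidance genes whose probe sets agreed, 2, was 4 with median scaling (Efnb2 and Unc50 added) and 1 each at the 99th percentile, with no filter and with Spearman's correlation. It was 0 without mice 1 and 6, an alternative chosen after seeing the data, and 0 to 2 without any 1 mouse. With 7 mice fewer pairings exist. Among all genes the agreement count of 558 was 774 with median scaling, 523 at the 99th percentile and 426 with no filter. It was 251 with Spearman's correlation and 219 without _x_at and _s_at probe sets. Without 1 mouse it ran from 126 (without mouse 1) to 391 (without mouse 4), and it was 0 without mice 1 and 6. Correlations with marker scores gave 0 calls under every alternative run. The smallest possible p limits this test, more so with fewer mice, so the 0 calls do not show that the result is robust. Epha3 had an SD of 0.24 in place of 0.39 without mouse 6 or without mouse 8, since another probe set was then the brightest, and Epha4 0.15 in place of 0.24 without mouse 1. No paired analysis was possible because there is 1 group.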
